A study of Homo sapiens with 72 samples.

Results

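The genes examined here are 8 protein-coding genes of the 20007 annotated by GENCODE release 44: SGK1, PHLDA1, SLC6A6, ECE1, RUBCNL, KCNJ2, KCNJ16 and AGO2. They were selected on the treated and untreated values of these same libraries, as genes whose histone marks changed with bryostatin in some lines and not in others, so their changes with bryostatin are given as a description with no test. Each gene was taken from its first to its last annotated base with 3 kb on either side, and every peak that touched this window was used. KCNJ2 and KCNJ16 are neighbours on chromosome 17 and are not independent of each other. On hg38, ECE1 (ENSG00000117298.16) lies at chr1:21217247-21345572, SGK1 (ENSG00000118515.12) at chr6:134169248-134318112, AGO2 (ENSG00000123908.12) at chr8:140520156-140635633, PHLDA1 (ENSG00000139289.15) at chr12:76025447-76031776 and RUBCNL (ENSG00000102445.20) at chr13:46334681-46438190, all on the minus strand. SLC6A6 (ENSG00000131389.18) lies at chr3:14402576-14489349, KCNJ16 (ENSG00000153822.15) at chr17:70053429-70135608 and KCNJ2 (ENSG00000123700.5) at chr17:70168673-70180044, on the plus strand.

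Cut&Tag, in which a transposase tethered by an antibody tags the DNA around a histone mark for sequencing, was performed on 3 lines of B cell origin. Raji is a Burkitt's lymphoma line, and NALM6 and REH are acute lymphocytic leukemia lines. Each line was left untreated or received 1 nM bryostatin overnight as the labels put it, with 3 replicates for H3K4me2, H3K4me3 and H3K27me3, which makes 54 libraries. Each group is 1 established cell line, no genetic change distinguishes the treated from the untreated cells, and the labels do not say that replicates came from separate cultures, so the spread between them may be technical.

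Bryostatin binds the C1 domains of protein kinase C and activates the kinase, which passes the signal on to transcription factors such as AP-1 and NF-kB. H3K4me3 marks active gene starts, H3K4me2 covers starts and enhancers, and H3K27me3 is laid down by the Polycomb repressive complex 2 over silent genes. Of the 8 genes, SGK1 encodes a serine/threonine kinase that acts downstream of PI3K, PHLDA1 a protein with a pleckstrin homology-like domain, SLC6A6 the taurine transporter and ECE1 the endothelin-converting enzyme. RUBCNL (Pacer) encodes a regulator of autophagosome maturation, KCNJ2 and KCNJ16 encode inwardly rectifying potassium channels, and AGO2 encodes the Argonaute protein with slicer activity in RNA interference.

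The 48 libraries scaled in RPKM held 5.12 to 47.9 M mapped reads (median 18.8 M). Replicate 1 of NALM6, with 6 libraries, differs from the rest in its scaling and has shorter peaks, so NALM6 values are also given without it where it decides a value. For H3K4me2 the median depth was higher in the bryostatin libraries of each line, at 16.1 M against 8.31 M reads in Raji, 20.2 against 15.4 in REH and 22.3 against 15.6 in NALM6 (replicates 2 and 3). The libraries overlapped in depth in REH and NALM6. In Raji they did not, at 8.31, 6.70 and 13.9 M reads untreated and 15.6, 18.8 and 16.1 M with bryostatin. Depth and treatment therefore cannot be told apart for H3K4me2 in Raji. For H3K4me3 the median depth was lower in the bryostatin libraries, at 17 M against 21 M reads in Raji and 17.4 against 18.8 in REH. In NALM6 (replicates 2 and 3) it was 11.5 against 18.9. The part of depth in the changes below was not tested. Peaks of H3K4me3 at the starts of the precursor B cell genes VPREB1, IGLL1, DNTT and RAG1 were called in at least 4 of the 6 libraries for 1 of 4 genes in Raji, 3 of 4 in REH and 4 of 4 in NALM6. The mature B cell genes MS4A1, CR2 and FCER2 were marked in Raji and had no peak in any library of REH or NALM6, and the 6 genes of other cell types (CD3E, CD4, CD14, LYZ, GATA1, KRT8) had none in any line.

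All values below are the total signal of the peaks in a gene's window divided by the median gene of that library, so that 1 is the signal of a typical marked gene. Because a wider peak adds to this total, the width of the peaks in bp and their average height per base stand beside the values. The signal per base is in RPKM as deposited, not divided by the median gene, and for NALM6 it comes from replicates 2 and 3. The groups of 3 untreated and 3 bryostatin libraries are called separated where their values do not overlap.

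SGK1 and PHLDA1 had more than 2 times the H3K4me3 with bryostatin in Raji. SGK1 has its marked start near the end of the long gene model, at a CpG-rich start shared by 3 annotated transcripts. The bases before this start, and before the start of PHLDA1, are shown because the H3K4me3 regions that changed in Raji covered them. Where within each region the change lay was not measured. The bases are from hg38, both genes on the minus strand, SGK1 at chr6:134174867-134175166 and PHLDA1 at chr12:76031777-76032076. They hold 42 and 28 CpG dinucleotides, against a median of 17 in the same 300 bases before the starts of all 20007 genes, and neither holds any of the motifs searched (below).
SGK1: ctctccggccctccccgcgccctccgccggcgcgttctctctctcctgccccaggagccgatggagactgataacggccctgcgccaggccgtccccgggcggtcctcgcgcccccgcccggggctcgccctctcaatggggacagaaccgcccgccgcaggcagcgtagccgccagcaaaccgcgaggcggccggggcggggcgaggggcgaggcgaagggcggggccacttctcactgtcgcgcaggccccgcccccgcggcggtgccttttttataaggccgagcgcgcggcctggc
PHLDA1: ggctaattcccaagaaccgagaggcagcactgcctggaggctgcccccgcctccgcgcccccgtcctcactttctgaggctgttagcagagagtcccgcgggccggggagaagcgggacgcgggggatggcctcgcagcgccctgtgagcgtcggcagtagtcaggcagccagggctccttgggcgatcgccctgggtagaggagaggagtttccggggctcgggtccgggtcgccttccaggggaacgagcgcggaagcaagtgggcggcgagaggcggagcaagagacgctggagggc

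In Raji the H3K4me3 signal of SGK1 was 0.131, 0.172 and 0.112 in the untreated libraries and 0.438, 0.417 and 0.321 in the bryostatin libraries. The groups were separated, and the mean was 0.139 ± 0.0311 untreated and 0.392 ± 0.0624 treated (SD, n = 3), a ratio of 2.83. The called length had means of 1870 and 5443 bp, and the signal per base was 149 and 166 RPKM, so length differed more than height. In REH a peak was called in 1 of 3 untreated libraries (0.230) and in 3 of 3 bryostatin libraries (0.291, 0.277 and 0.289), and these values do not overlap. The REH means were 0.0766 and 0.286, a ratio of 3.73, where an untreated library without a peak counts as 0. In NALM6 no H3K4me3 peak was called at SGK1 in any of the 6 libraries.

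H3K4me2 at SGK1 was uneven between replicates. In Raji it was 0.441, 0.330 and 0.314 untreated and 1.05, 1.10 and 0.291 with bryostatin, so that replicate 3 stayed at the untreated level while the other 2 were above it. The ratio of the means was 2.25 for the total signal, while the signal per base was 252 and 103 RPKM over 1483 and 10337 bp. In REH the means were 0.685 ± 0.0841 and 0.625 ± 0.190, and in NALM6 0.511 ± 0.156 and 0.589 ± 0.304, with overlapping groups in both. The NALM6 ratio of 1.15 was 0.978 without replicate 1.

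At PHLDA1, H3K4me3 in Raji was 0.130, 0.146 and 0.117 untreated and 0.374, 0.330 and 0.279 with bryostatin, a ratio of 2.50 with separated groups. Here the called length was similar (2230 and 2610 bp) and the signal per base was 118 and 290 RPKM. REH started from a higher level, 0.615, 0.558 and 0.542, and had 0.655, 0.679 and 0.680 (ratio 1.17, separated). In NALM6 peaks were called in replicates 2 and 3 of the untreated cells (0.244 and 0.239) and in replicate 2 of the treated cells (0.419). Treated replicate 3, without a peak here, had 5.41 M reads and 4389 H3K4me3 peaks in all, the fewest of this mark. Its missing peak was therefore not read as a loss. H3K4me2 at PHLDA1 showed another order of lines: NALM6 was 0.882, 1.08 and 0.985 untreated and 1.22, 1.18 and 1.12 with bryostatin (ratio 1.19, separated), whereas the groups overlapped in Raji (ratio 1.06) and in REH (ratio 0.954). Without replicate 1 of NALM6 the ratio there was 1.11.

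**Figure D1:**
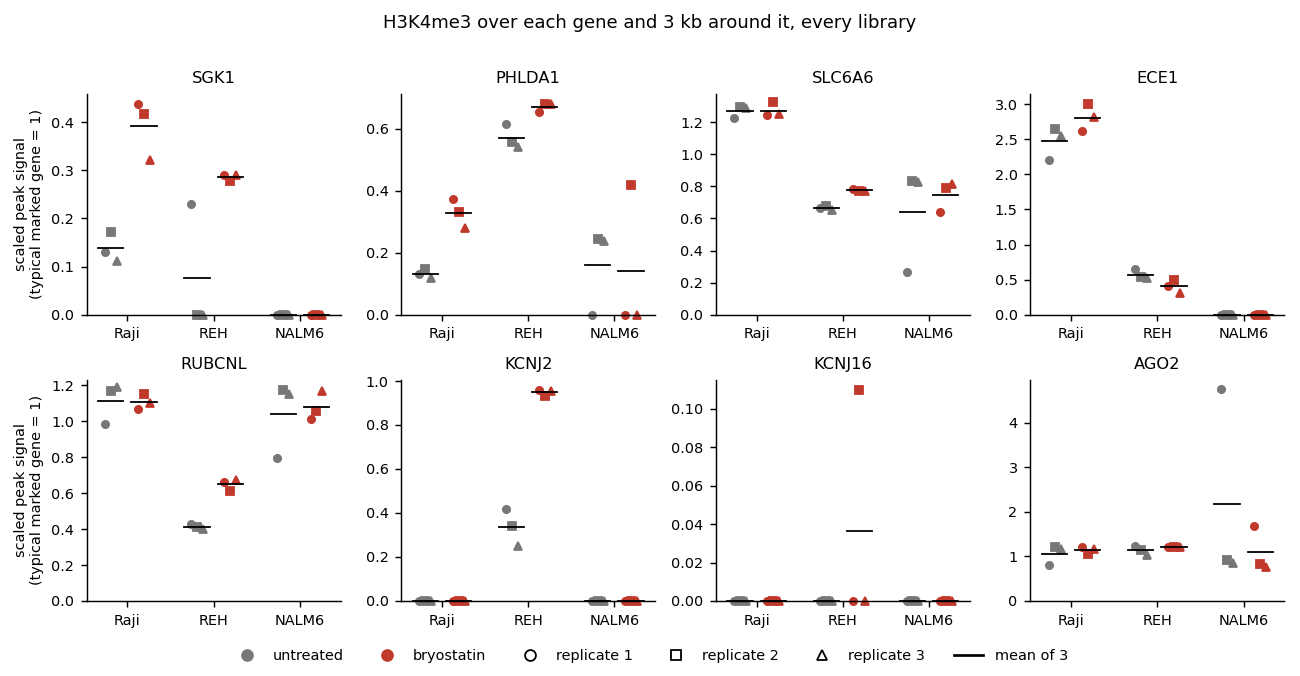
H3K4me3 signal (vertical axis, scaled so that 1 is a typical marked gene; axes differ between genes) over each of the 8 genes in every library of Raji, REH and NALM6, untreated (grey) or bryostatin (red); symbols give the replicate and bars the mean of 3. KCNJ2 is marked in REH alone among the 3 lines, with means of 0.336 untreated and 0.949 treated, and the AGO2 value of 4.76 is replicate 1 of untreated NALM6, which has another scaling.

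KCNJ2, which encodes the Kir2.1 channel, carried H3K4me3 in all 6 REH libraries and in none of the 12 libraries of Raji and NALM6. The signal in REH was 0.418, 0.340 and 0.250 untreated and 0.958, 0.934 and 0.955 with bryostatin. The groups were separated, with means of 0.336 ± 0.0839 and 0.949 ± 0.0131 and a ratio of 2.82. Length (2747 and 4283 bp) and signal per base (267 and 494 RPKM) were both higher in the treated cells. H3K4me2 at the same gene differed less: the REH libraries had 0.766, 0.714 and 0.665 untreated and 0.737, 0.766 and 0.938 treated, with overlapping groups, and the peaks were wider and lower (2660 and 5950 bp, 366 and 182 RPKM per base). H3K4me2 peaks were also called at KCNJ2 in 3 libraries of Raji and 1 of NALM6, all at or below 0.215.

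H3K27me3 at KCNJ2 was called in the lines that lacked H3K4me3 there. It was called in 2 of 3 untreated and 3 of 3 bryostatin libraries of Raji, in 2 of 3 and 2 of 3 of NALM6, and in none of the 6 of REH. In Raji the called length was 0, 2560 and 4790 bp untreated and 1130, 1470 and 1370 bp with bryostatin. The signal per base of the called peaks went the other way, at 84.5 RPKM untreated and 163 RPKM treated. The untreated library without a peak had 819 H3K27me3 peaks in all. The median depth of these libraries was 22.9 M reads untreated and 7.74 M treated, and its part in the calls was not tested. H3K27me3 libraries held from 590 to 101702 peaks, so a missing peak was not read as absence of the mark. The promoter of KCNJ2 is shown because H3K4me3 and H3K27me3 peaks of different lines covered it (RefSeq, GRCh38.p14, plus strand, the 250 bases before the start, chr17:70169282-70169531). It holds 32 CpG dinucleotides and 77.6% G and C.
KCNJ2: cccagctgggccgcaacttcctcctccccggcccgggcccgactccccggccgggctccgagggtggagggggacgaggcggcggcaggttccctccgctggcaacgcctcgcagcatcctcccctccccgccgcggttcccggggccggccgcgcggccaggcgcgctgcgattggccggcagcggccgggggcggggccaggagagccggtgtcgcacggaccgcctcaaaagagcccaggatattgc

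KCNJ16, a channel subunit of kidney and glia whose gene lies upstream of KCNJ2, had H3K4me2 peaks in REH and in no library of Raji or NALM6. Over an internal start at chr17:70103421-70109370 the REH libraries had 0.281, 0.270 and 0 untreated and 0.393, 0.308 and 0.378 with bryostatin. The treated values were all above the untreated ones there, and the widths called were 3730 and 3170 bp against 5950, 3730 and 3880 bp. The untreated library without a peak, replicate 3, had the fewest reads of the REH H3K4me2 libraries (13.75 M). Bryostatin replicate 3 had the most (22.85 M). Over the whole gene window the groups overlapped, at 0.504, 0.270 and 0 untreated and 0.649, 0.308 and 0.378 with bryostatin. An H3K4me3 peak was called at KCNJ16 in 1 of 18 libraries (REH bryostatin replicate 2, 0.110), and H3K27me3 in none.

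RUBCNL had more H3K4me3 with bryostatin in REH, the line where it was least marked. The signal was 0.427, 0.409 and 0.400 untreated and 0.662, 0.610 and 0.676 with bryostatin. The groups were separated, the ratio was 1.58, and length (2897 and 3367 bp) and signal per base (307 and 430 RPKM) were both higher. Raji and NALM6 were already at the level of a typical gene and the ratios were 0.992 and 1.04 (0.959 without replicate 1 of NALM6), with overlapping groups. H3K4me2 at RUBCNL was 1.27, 0.665 and 1.68 in untreated Raji and 1.97, 1.97 and 1.29 in treated Raji, which overlap. In REH it was 0.825 ± 0.0963 and 0.968 ± 0.0706, also overlapping. In NALM6 it was 0, 0.642 and 0.894 untreated and 0.75, 0.968 and 1.27 with bryostatin, which overlap. The H3K4me2 mean was thus higher with bryostatin in each line, with ratios of 1.45 in Raji, 1.17 in REH and 1.46 in NALM6 without replicate 1.

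SLC6A6 was higher with bryostatin in REH in both marks. H3K4me3 in REH was 0.666, 0.679 and 0.653 untreated and 0.782, 0.774 and 0.769 with bryostatin, a ratio of 1.16 with separated groups. In Raji it was 1.27 ± 0.0375 and 1.27 ± 0.0463, and in NALM6 the ratio was 1.17 with all libraries and 0.967 without replicate 1. H3K4me2 in REH was 1.74, 1.66 and 1.66 untreated and 1.83, 2.05 and 2.06 treated (ratio 1.18, separated), with a called length of 7037 and 9430 bp and a signal per base of 325 and 278 RPKM, so the mean per base went the other way from the total. Raji was at 3.77 ± 0.386 and 3.41 ± 0.199 (ratio 0.905) and NALM6 at 1.20 ± 0.140 and 1.27 ± 0.0823 (ratio 1.06, and 0.961 without replicate 1), with overlapping groups in both.

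The gene has marked regions at its first start and around an internal start, and they moved differently. At the internal start (chr3:14422441-14435290, hg38) H3K4me2 in REH was 0.718, 0.712 and 0.663 untreated and 1.01, 1.14 and 1.14 with bryostatin. In Raji the same region was 2.38, 2.67 and 2.67 untreated and 2.04, 2.15 and 2.30 treated, so the groups were separated upward in REH (ratio 1.57) and downward in Raji (ratio 0.841). At the first start (chr3:14400271-14408140) H3K4me2 in REH went from 0.986 ± 0.0386 to 0.884 ± 0.0541, while H3K4me3 there was higher. The called length at the internal start was 2573 and 4203 bp in REH and 7530 and 10957 bp in Raji. The 300 bases before the internal start (chr3:14432370-14432669, plus strand) are shown because the region changed in opposite directions. The capitals mark both matches to TGANTCA, the AP-1 motif.
SLC6A6: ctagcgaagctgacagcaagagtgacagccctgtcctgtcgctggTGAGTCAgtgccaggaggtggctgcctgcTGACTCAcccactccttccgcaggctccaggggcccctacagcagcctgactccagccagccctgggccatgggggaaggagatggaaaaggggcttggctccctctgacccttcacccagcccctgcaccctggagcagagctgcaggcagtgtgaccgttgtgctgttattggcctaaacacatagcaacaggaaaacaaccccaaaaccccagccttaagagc

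The motifs TGANTCA (AP-1), TGACGTCA (CRE), GGGNNTTCC (NF-kB) and GCGTGGGCG (EGR) were searched on both strands. Before the 10 marked starts of 7 of the 8 genes (AGO2 was not searched), TGANTCA matched at SLC6A6, 255 and 226 bases before its internal start, and GGGNNTTCC matched 49 bases before its first start. The other 2 motifs did not match. In the same 300 bases before the starts of all genes, 6.35% held TGANTCA, 2.23% TGACGTCA, 7.27% GGGNNTTCC and 0.98% GCGTGGGCG. RefSeq promoters were found for 6 of the 8 genes (not SLC6A6 and AGO2), and among them TGANTCA matched in that of KCNJ16, where 5.74% of 15345 promoters hold it. That promoter (chr17:70074975-70075274) lies outside the marked internal start of KCNJ16, and no H3K4me2 or H3K4me3 peak covered it. A match describes the letters only.

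ECE1 was the 1 gene of the 8 whose H3K4me3 was lower with bryostatin in a line with separated groups. In REH it was 0.653, 0.535 and 0.527 untreated and 0.412, 0.501 and 0.310 with bryostatin (ratio 0.714), with 3170 and 2780 bp called and 391 and 327 RPKM per base. In Raji it was 2.47 ± 0.229 untreated and 2.81 ± 0.195 treated (ratio 1.14, overlapping). At the distal start alone (chr1:21340241-21347700) the groups were separated in both lines and in opposite directions, with 2.06, 2.40 and 2.38 against 2.47, 2.71 and 2.70 in Raji (ratio 1.15) and 0.508, 0.535 and 0.527 against 0.412, 0.377 and 0.310 in REH (ratio 0.701). The called length there was 4930 and 5563 bp in Raji and 2513 and 2277 bp in REH. NALM6 had no H3K4me3 peak at ECE1 in any library. H3K4me2 at ECE1 had means of 7.55 ± 0.107 and 7.48 ± 0.467 in Raji and 2.41 ± 0.0417 and 2.42 ± 0.297 in REH.

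H3K27me3 at ECE1 differed in extent between lines. It was called in 3 of 3 untreated and 2 of 3 treated libraries of NALM6, in 3 of 3 and 3 of 3 of REH, and in 1 of 3 and 0 of 3 of Raji. In replicates 2 and 3 of NALM6 the called length was 46350 and 44900 bp untreated and 69950 and 29500 bp treated. In REH the mean was 3087 and 2423 bp. In these calls NALM6, which had no H3K4me3 here, had the widest H3K27me3, and Raji, with the most H3K4me3, had a peak in 1 library. Untreated replicate 1 and bryostatin replicates 1 and 2 of Raji held only 819, 3424 and 2778 H3K27me3 peaks in all. A missing peak in Raji was therefore not read as absence of the mark. SGK1 showed a like arrangement, with H3K27me3 in 2 of 3 and 2 of 3 libraries of NALM6, in 1 of 3 untreated libraries of REH and in none of Raji. At RUBCNL, PHLDA1, SLC6A6 and AGO2 H3K27me3 was called in at most 2 of the 3 libraries of a group. RUBCNL was arranged the other way from ECE1. It was called in 2 untreated and 1 treated library of Raji and in none of REH, where its H3K4me3 was lowest, or NALM6. PHLDA1, SLC6A6 and AGO2 were called in 1 untreated library of Raji, replicate 2 for each. The ECE1 peak of Raji and 1 RUBCNL peak came from this library too. PHLDA1 was also called in 1 untreated and 1 treated library of NALM6 and SLC6A6 in 1 treated library of NALM6. These calls were not tested.

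AGO2 did not follow the name given to the group, since its H3K4me2 was higher with bryostatin in all 3 lines. It was 1.12, 1.06 and 1.38 against 1.55, 1.69 and 1.47 in Raji, 3.54, 3.56 and 3.25 against 4.21, 4.02 and 3.93 in REH, and 1.96, 1.97 and 1.86 against 3.25, 2.08 and 2.05 in NALM6. The groups were separated in each line, with ratios of 1.32, 1.18 and 1.28, and without replicate 1 of NALM6 the ratio there was 1.08. The mean signal per base was lower with bryostatin in each line (186 and 162 RPKM in Raji, 352 and 237 in REH, 324 and 263 in NALM6) over a longer called length (6733 and 12187, 13310 and 22633, 6028 and 9517 bp). Set against the median gene of each library, the log2 change of the mean per base was 0.22 in Raji, -0.42 in REH and -0.05 in NALM6, so the direction of AGO2 in REH and NALM6 depends on counting length.

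Part of the difference lay in an intron, 11588 bp from the nearest annotated start, at chr8:140586531-140594300. In REH no peak was called there in 3 untreated libraries and the treated ones had 0.498, 0.509 and 0.573. In Raji the values were 0.0836, 0 and 0 untreated and 0.393, 0.408 and 0.264 treated. In NALM6 they were 0.349, 0 and 0 untreated and 0.671, 0.215 and 0.185 treated, where both replicate 1 values have the other scaling and the groups overlap. Within 1 kb of annotated starts the H3K4me2 ratio was 1.10 in Raji, 0.985 in REH and 1.32 in NALM6 (1.10 without replicate 1), with overlapping groups. H3K4me3 over the gene had ratios of 1.07 in Raji and 1.06 in REH, also overlapping, and of 0.890 in NALM6 without replicate 1. Another intronic region (chr8:140596011-140602130) was 1.81 ± 0.0867 and 1.73 ± 0.0529 in REH, and one more, at chr8:140607771-140610450, was called in all 6 REH libraries and in none of Raji or NALM6.

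**Figure D2:**
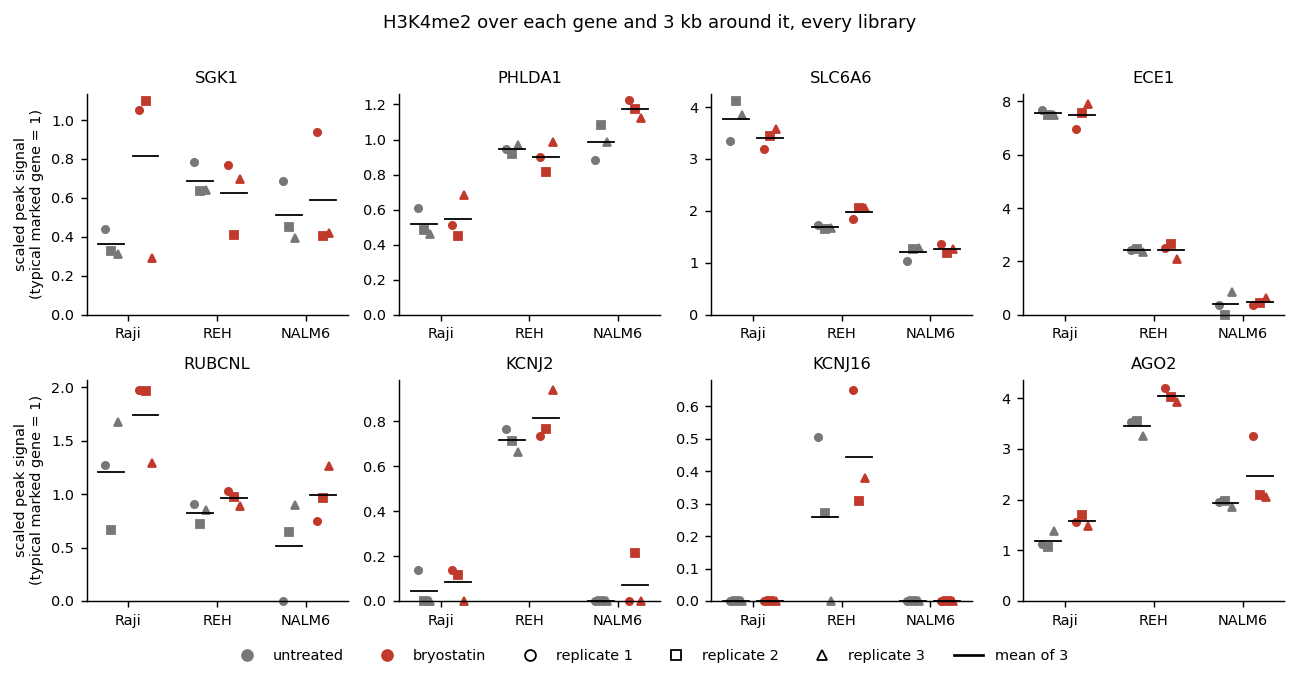
H3K4me2 signal (vertical axis, scaled so that 1 is a typical marked gene; axes differ between genes) over each of the 8 genes in every library, untreated (grey) or bryostatin (red), with symbols for replicates and bars for the mean of 3. AGO2 is higher with bryostatin in all 3 lines, and ECE1 differs between lines (7.55, 2.41 and 0.410 untreated) far more than between treatments.

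The same counts over all genes show how often such values occur. Counted over the genes with a peak in all 6 libraries of a line, the groups of H3K4me3 were separated upward in Raji for SGK1 and PHLDA1, 2 of the 6 of the 8 genes that could be counted, against 6.04% of all genes. In REH they were separated upward for PHLDA1, SLC6A6, RUBCNL and KCNJ2, 4 of 6 against 7.10%, and downward for ECE1 against 7.80%. In NALM6 this held for 0 of 3, against 3.50%. For H3K4me2 they were separated upward for AGO2 in Raji (1 of 6, against 4.40%), for SLC6A6 and AGO2 in REH (2 of 7, against 6.23%) and for PHLDA1 and AGO2 in NALM6 (2 of 4, against 3.37%). The genes were chosen on this contrast, so nothing is read from these counts. In limma over all genes, the change with bryostatin passed an adjusted p of 0.05 for 0.0207% of genes in Raji, 0.169% in REH and 0% in NALM6 (75 genes at an unadjusted p under 0.05) for H3K4me2. For H3K4me3 it passed for 0% in Raji (530 genes unadjusted), 0.428% in REH and 0% in NALM6 (14 genes unadjusted). With the replicate block, limma called 3 genes in place of 18 for H3K4me2 in REH and 9 in place of 0 for H3K4me3 in Raji. The difference of that change between lines passed for 0% of genes in each pair of lines and mark in limma, where 55 to 449 genes were under an unadjusted p of 0.05.

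**Figure D3:**
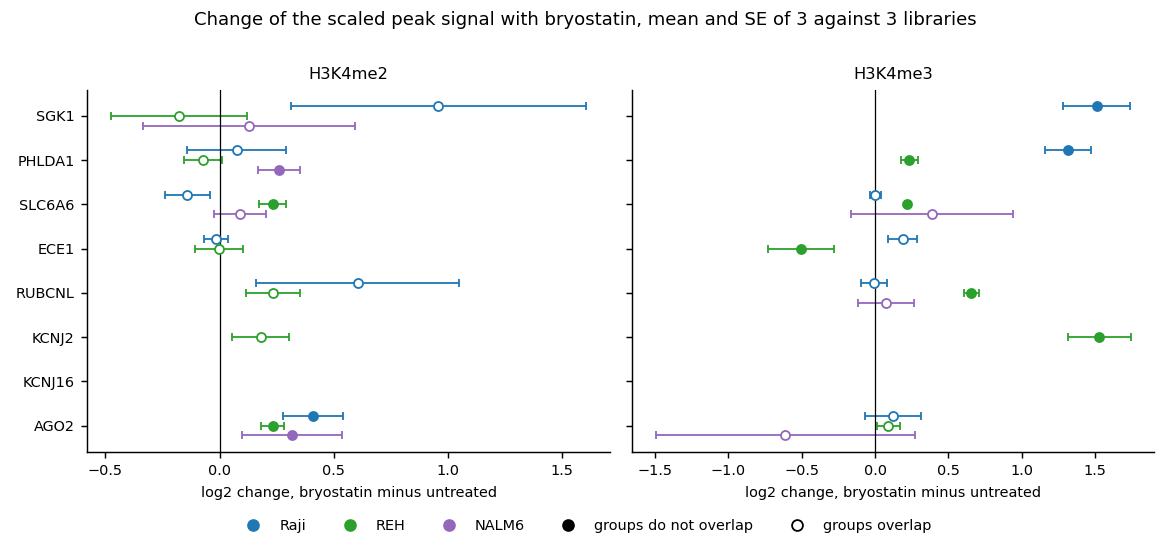
Log2 change of the scaled signal (horizontal axis, bryostatin minus untreated, mean and SE of 3 against 3 libraries) for each gene with a peak in all 6 libraries of a line; filled points have groups that do not overlap. For H3K4me3 the largest changes are SGK1 (1.51) and PHLDA1 (1.32) in Raji and KCNJ2 (1.53) in REH.

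The level of a gene averaged over untreated and treated libraries is not the contrast on which the genes were chosen. It was compared between lines with limma over 12 libraries. The level comes from the same libraries, and whether the choice favoured genes that differ between lines was not tested. The adjusted p-values below therefore describe these genes. H3K4me2 at ECE1 was higher in Raji than in REH by 1.55 ± 0.08 on the log2 scale (SE, limma, adjusted p = 3.4e-09), and H3K4me3 by 2.47 ± 0.10 (limma, adjusted p = 3.2e-10). SLC6A6 was higher in Raji than in REH by 0.88 ± 0.08 for H3K4me2 and 0.83 ± 0.04 for H3K4me3 (limma, adjusted p = 6.9e-07 and 2.9e-09). RUBCNL was higher in Raji than in REH by 1.11 ± 0.06 for H3K4me3 and 0.55 ± 0.19 for H3K4me2 (limma, adjusted p = 2.8e-09 and 0.0212). PHLDA1 was lower in Raji than in REH, by -0.89 ± 0.12 for H3K4me2 and -1.58 ± 0.08 for H3K4me3 (limma, adjusted p = 2.5e-05 and 4.7e-09). AGO2 was lower in Raji than in REH by -1.55 ± 0.08 for H3K4me2 (limma, adjusted p = 3.4e-09), whereas its H3K4me3 differed by -0.09 ± 0.09 (limma, adjusted p = 0.359). SGK1 H3K4me2 differed by -0.45 ± 0.28 (limma, adjusted p = 0.186).

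Thus 5 of the 6 genes tested for H3K4me2 and 4 of the 5 tested for H3K4me3 differed between Raji and REH, where 59.0% and 63.1% of all genes did. KCNJ2 and KCNJ16 had no peak in some libraries of every pair and were not tested. With the mean signal per base in place of the total, SLC6A6 H3K4me2 was -0.22 and RUBCNL -0.07 (limma, adjusted p = 0.129 and 0.648), so both directions turned, while the AGO2 H3K4me3 difference was 0.52 (limma, adjusted p = 0.0139). RUBCNL H3K4me2 was also -0.15 by the maximum signal, and SLC6A6 H3K4me3 was 0.27 by the mean per base (limma, adjusted p = 0.282 and 0.135).

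Against NALM6, Raji was higher at SLC6A6 by 1.54 ± 0.12 for H3K4me2 and 0.97 ± 0.24 for H3K4me3 (limma, adjusted p = 9.7e-07 and 0.00868). It was lower for H3K4me2 at PHLDA1 (-1.03 ± 0.14) and AGO2 (-0.66 ± 0.15), with adjusted p = 0.000114 and 0.0036 in limma. SGK1 H3K4me2 (-0.06 ± 0.34), RUBCNL H3K4me3 (0.08 ± 0.12) and AGO2 H3K4me3 (-0.20 ± 0.38) did not pass (limma, adjusted p = 0.909, 0.614 and 0.695). These are 3 of 4 genes tested for H3K4me2, where 39.6% of all genes differed, and 1 of 3 for H3K4me3, where 36.7% did. SLC6A6 did not pass by the mean per base, at 0.19 for H3K4me2 and 0.32 for H3K4me3 (limma, adjusted p = 0.357 and 0.229), nor AGO2 H3K4me2 by the maximum signal, at -0.21 (limma, adjusted p = 0.446).

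Between NALM6 and REH, RUBCNL H3K4me3 was higher in NALM6 by 1.01 ± 0.11 (limma, adjusted p = 0.000105). H3K4me2 was lower in NALM6 at SLC6A6 (-0.57 ± 0.10) and AGO2 (-0.80 ± 0.12), with adjusted p = 0.00194 and 0.000566 in limma. PHLDA1 (0.22 ± 0.11) and SGK1 (-0.31 ± 0.24) H3K4me2 did not pass with all libraries (limma, adjusted p = 0.16 and 0.376) and did without replicate 1 of NALM6, at 0.33 and -0.53 (limma, adjusted p = 0.00335 and 0.0209). With all libraries 2 of 4 genes differed for H3K4me2, against 22.6% of all genes, and 1 of 3 for H3K4me3, against 22.3%. By the mean per base SLC6A6 (-0.35) and AGO2 (-0.11) H3K4me2 did not pass (limma, adjusted p = 0.0583 and 0.573). Without replicate 1 of NALM6, AGO2 H3K4me3 was lower in NALM6 than in Raji and REH, with Raji minus NALM6 at 0.38 and NALM6 minus REH at -0.48 (limma, adjusted p = 0.0111 and 7.6e-05). SLC6A6 H3K4me3 went from -0.15 ± 0.25 to 0.18 for NALM6 minus REH on leaving it out (limma, adjusted p = 0.669 and 0.0144).

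**Figure D4:**
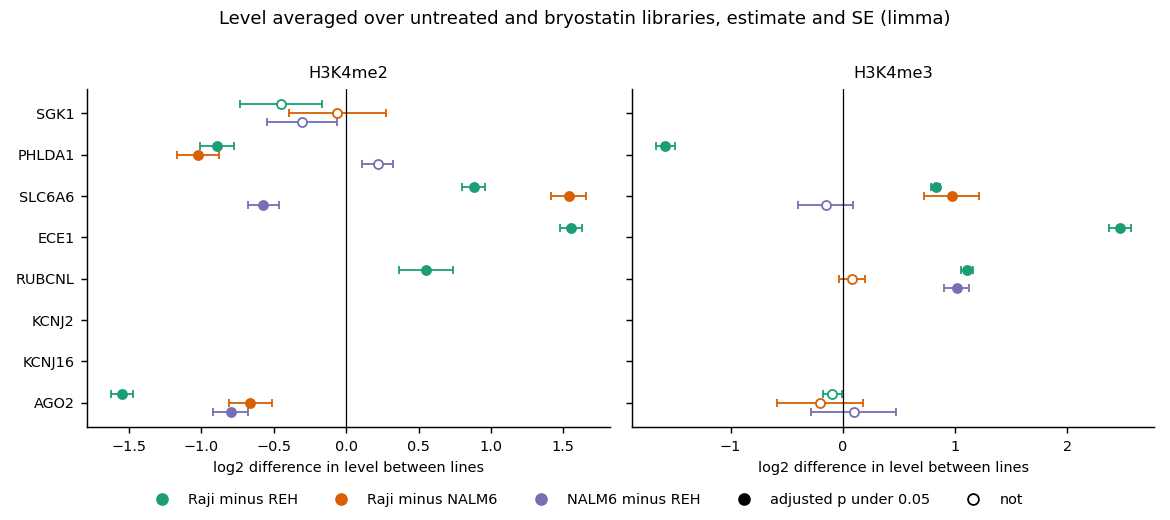
Difference in level between lines (horizontal axis, log2, averaged over untreated and bryostatin libraries, limma estimate and SE) for H3K4me2 and H3K4me3, with filled points where the adjusted p is under 0.05. ECE1 has the largest difference shown, 2.47 for H3K4me3 between Raji and REH, and AGO2 between the same lines passes the test for H3K4me2 (-1.55) and does not for H3K4me3 (-0.09).

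By total signal in all libraries, the lines fell into an order for some of the genes. For H3K4me3, ECE1 was higher in Raji than in REH and had no peak in NALM6, SLC6A6 was highest in Raji, and RUBCNL was lowest in REH. The SLC6A6 levels of REH and NALM6 and the RUBCNL levels of Raji and NALM6 were not separated by the test. For H3K4me2, AGO2 was ordered REH, NALM6, Raji and SLC6A6 Raji, REH, NALM6, with each step past the test, and PHLDA1 was lowest in Raji.

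Among 52 further genes of the same families and pathways (SGK1 partners, PHLDA and SLC6 relatives, the endothelin system, class 3 PI3K autophagy, inward rectifiers and RNA silencing), 12 to 27 could be tested for a change with bryostatin in a line and mark, and none passed in limma (at most 1 in each at an unadjusted p under 0.05), with medians from -0.03 to 0.07 on the log2 scale. Of all genes, 0% to 0.428% passed in these comparisons. In level, 7 of 20 were higher and 5 lower in Raji than in REH for H3K4me2, and 3 of 19 higher and 7 lower for H3K4me3, where 59.0% and 63.1% of all genes differed. Such differences were common among all genes, so the relatives below are named as a description. AGO1, another Argonaute, was higher in Raji than in REH for H3K4me2 by 1.34 ± 0.11 (limma, adjusted p = 2.0e-07), the other way from AGO2. For the same mark AGO3 was higher in Raji by 0.50 ± 0.13, and AGO4 was lower, like AGO2, by -0.44 ± 0.09 (limma, adjusted p = 0.0043 and 0.0013). For H3K4me3 AGO3 went the other way and was lower in Raji by -0.41 ± 0.09 (limma, adjusted p = 0.0011). AGO4 was lower by -1.86 ± 0.20 for H3K4me3 and the microprocessor gene DGCR8 by -1.54 ± 0.21 (limma, adjusted p = 2.8e-06 and 2.8e-05). UVRAG, a partner of the class 3 PI3K complex that RUBCNL works with, was higher in Raji by 0.88 ± 0.07 for H3K4me3 and 0.93 ± 0.15 for H3K4me2 (limma, adjusted p = 1.2e-07 and 0.000151). SGK3, a relative of SGK1, was lower in Raji than in REH by -1.01 ± 0.10 for H3K4me3 (limma, adjusted p = 2.3e-06). No endothelin or PHLDA relative had peaks in all libraries of a pair of lines.

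Over the 18 H3K4me2 libraries, which share line, depth and scaling, the genes elsewhere with the most similar levels are given as a description. They were PLCL2 and PIKFYVE for SGK1 (Pearson r = 0.929 and 0.814), CAMK1D and TAMALIN for PHLDA1 (0.951 and 0.949), and ZC3H12A and POU6F1 for SLC6A6 (0.979 and 0.979). For ECE1 they were GDPD5 and COPS5 (0.959 and 0.952), for RUBCNL SIL1 and SMG9 (0.967 and 0.959), and for AGO2 RUNX1 and FST (0.954 and 0.947). For KCNJ2 they were HOXD13 and HOXD12 (0.991 and 0.991), and for KCNJ16 NOL4 and SLFN12L (1.00 and 0.985), where the matched genes had a peak in 10 of 18 libraries for KCNJ2 and in 5 for KCNJ16.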

How the data were processed

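Peaks of 3 histone marks (H3K27me3, H3K4me3, H3K4me2) measured by Cut&Tag in untreated and bryostatin-treated Raji, REH and NALM6 cells were analysed, with 3 replicates in each group. The submitters' processing notes and the study's methods name bcl2fastq, Trim Galore, Bowtie2, SEACR and DESeq2 with hg38; versions are not given in the sources used here. The deposited signal values are the coverage that the authors normalized by RPKM, summed over each SEACR peak of each library separately, with its maximum. For NALM6, replicate 1 was deposited on a different scale, and no source used here gives the factor. IgG controls are not analysed here, and 1 list of marker genes is not reported here.

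Mapped reads were read from the steps of the RPKM values. Genes and starts were taken from GENCODE 44 and peaks were assigned to a gene where they overlapped it, with 3 kb on either side, by 1 bp. Sums were divided by the library's median over the 4356 (H3K4me2) or 4859 (H3K4me3) genes with a peak in all 18 libraries of the mark. Only 45 genes had an H3K27me3 peak in all libraries, so calls and lengths are given in the text, with the signal per base for KCNJ2 in Raji. The plot of single regions shows KCNJ2 H3K27me3 divided by the median of those 45. Log2 sums were fitted with limma 3.58.1 (eBayes with trend, R 4.3.3) on genes with a peak in all libraries of a comparison, with Benjamini-Hochberg adjustment over all of them at 0.05. The fits were tested on simulated data. Tables and figures were made with Python 3.11.15 and matplotlib 3.10.9.

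The genes and lists were chosen with earlier results of these data known. The text names the 8 genes, some of the relatives that passed a test, the 2 most similar genes each, and regions called in 3 or more libraries. Promoter sequences are from RefSeq (GRCh38.p14), other sequence from hg38. Alternatives were the maximum or mean signal, clipped peaks, windows of 1 kb at starts, no centring, another filter with a pseudocount of 0.1, eBayes with no trend, the replicate block and leaving out libraries. Same-numbered untreated and bryostatin libraries deviated together in every pair for H3K4me2 in REH (r = 0.13 to 0.34) and NALM6 (0.42 to 0.50) and for H3K4me3 in Raji (0.35 to 0.50) and NALM6 (0.52 to 0.67), and not for H3K4me2 in Raji (-0.33 to 0.41) or H3K4me3 in REH (-0.15 to 0.16). In NALM6 unlike numbers reached 0.46 and 0.59, so the pattern there is replicate 1 against the others.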

Additional observations from a re-analysis of the deposited data

Results flagged for a closer look

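At 2 regions within the gene windows the signal moved in opposite directions in Raji and REH, with every bryostatin library on one side of every untreated library in each line. H3K4me2 at the internal start of SLC6A6 was 0.841 times the untreated mean in Raji and 1.57 times in REH. H3K4me3 at the distal start of ECE1 was 1.15 times the untreated mean in Raji and 0.701 times in REH. These differences between lines were not tested, since the genes were chosen on this contrast. Among window regions in 3 or more libraries, H3K4me2 groups in Raji were separated upward at 1, downward at 1 and overlapped at 16. In REH these counts were 3, 1 and 14. For H3K4me3 they were 3 upward and 8 overlapping in Raji, and 5 upward, 1 downward and 5 overlapping in REH. In NALM6 they were 1 upward and 17 overlapping for H3K4me2, and 11 overlapping for H3K4me3. Regions with no peak in any library of a line count as overlapping there. How often regions of all genes are separated, or move in opposite directions, was not counted. Nothing is therefore read from these counts or from the 2 regions.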

How the results depend on the processing

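Leaving out single libraries, or replicate 1 of NALM6 in both treatments, kept the direction and the call of the level differences in 306 comparisons of a gene and setting, with 3 reversals, 3 gains and 2 losses. Without replicate 1 of NALM6, H3K4me3 at AGO2 was 0.38 for Raji minus NALM6 and -0.48 for NALM6 minus REH, and at SLC6A6 0.18 for NALM6 minus REH (log2). The mean signal per base reversed Raji minus REH at SLC6A6 (-0.22) and RUBCNL (-0.072) for H3K4me2 and at AGO2 (0.52) for H3K4me3, and the change with bryostatin in H3K4me2 at SLC6A6 in REH (-0.0768) and at AGO2 in REH (-0.42) and NALM6 (-0.055). RUBCNL was -0.15 by the maximum signal, and AGO2 in REH was -0.022 within 1 kb of a start. RUBCNL H3K4me2 between Raji and REH also lost its call within 1 kb of a start (0.46), without centring (0.39) and without REH untreated replicate 2 or REH bryostatin replicate 3 (0.50 each). SGK1 gained one within 1 kb of a start (-0.77), and PHLDA1 between NALM6 and REH without NALM6 untreated replicate 1 (0.30). The causes were not tested.

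The number of genes called for bryostatin was small and unstable. For H3K4me2 in Raji (2) it was 0 by the mean per base or clipped peaks and 1 without centring. For H3K4me2 in REH (18) it was 8 by the maximum, 2 by the mean per base, 9 with a peak in 0.5 or more of the libraries and 11 without centring. For H3K4me3 in Raji (0) it was 12 with clipped peaks and 17 without centring, and in REH (38) it was 15 by the maximum, 0 by the mean per base, 23 with the looser filter, 23 with no trend and 10 without centring. Without replicate 1 of NALM6 it was 7 (H3K4me2) and 6 (H3K4me3) there. The difference of the change between Raji and REH gave 1 gene by the maximum H3K4me2 signal. Leaving out single libraries gave 0 to 44 in Raji, 12 to 34 in REH and 0 in NALM6 for H3K4me2, and 0 to 1, 4 to 44 and 0 for H3K4me3. For H3K4me2 it was 0 without Raji untreated replicate 1 or bryostatin replicates 1 or 2, 44 without Raji untreated replicate 3, 9 without Raji bryostatin replicate 3 and 34 without REH bryostatin replicate 3. For H3K4me3 it was 24, 4, 19 and 8 without REH untreated replicate 2 and bryostatin replicates 1, 2 and 3.

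For level, the mean per base gave 3296, 888 and 715 genes for H3K4me2 (Raji minus REH, Raji minus NALM6, NALM6 minus REH; 5069, 1753 and 1090 as reported) and 3090, 1049 and 351 for H3K4me3 (5194, 1813 and 1123). The looser filter gave 3960 and 2761 for the NALM6 pairs in H3K4me2 and 3900 and 2063 in H3K4me3, and leaving out replicate 1 of NALM6 gave 4073 and 4083, and 3125 and 2602. The maximum gave 1142 and 656 for the NALM6 pairs in H3K4me3, and no centring 2954 for Raji minus REH. Leaving out single libraries gave 4685 to 5413, 1472 to 2324 and 830 to 1630 for H3K4me2, and 4840 to 5256, 1428 to 2508 and 705 to 1611 for H3K4me3.

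With the replicate block the bryostatin counts were 0 in Raji and 3 in REH for H3K4me2 and 9 in Raji for H3K4me3, and the level counts 726 for H3K4me2 NALM6 minus REH and 945 and 430 for the NALM6 pairs in H3K4me3. The replicate block changed no level call of the 8 genes.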
